A study of Mus musculus with 9 samples.

Results

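The genes examined here are Lgals1, Lgals2, Lgals3, Lgals4, Lgals8 and Lgals9, which encode the 6 galectins listed for this comparison, and Lgals3bp, which encodes galectin-3 binding protein. They were found by gene symbol, and all 7 were among the 50600 genes of the deposited tables and among the 16208 genes tested. RNA was sequenced from 9 mouse libraries in 3 groups of 3. The 6 organoid libraries came from normal small intestine of wildtype (WT) mice of the C57BL/6 strain, derived from 3 mice, and were kept for 24 hr in a mixture of organoid medium and conditioned medium (cM) harvested either from tumoroids (T-cM) or from WT organoids (WT-cM). The 3 tumoroid libraries came from intestinal tumours of 3 Apc1638N/+ mice, given as a mixed strain, and were grown for 24 hr without conditioned medium. The tumoroids came from mice heterozygous for the germline Apc1638N allele, and the donors of tumours were older than the donors of organoids. Tumoroids were also maintained without R-spondin according to the study's methods, whereas the labels give the same medium for all libraries, so that genotype, donor age, strain, tissue of origin and medium cannot be told apart between tumoroids and organoids. For the organoids, titles and treatment fields name opposite media for the same libraries. The titles give the names used here, WT-cM-titled and T-cM-titled organoids, and every direction between them turns round if the treatment field is correct.

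Galectins are small proteins that bind β-galactoside sugars on glycoproteins and glycolipids. They are made in the cytosol, leave the cell by a route that bypasses the Golgi, and can crosslink receptors, integrins and matrix proteins at the cell surface. In the intestine, galectin-4 and galectin-3 are known for the apical delivery of brush border glycoproteins, while inside cells galectin-3, galectin-8 and galectin-9 bind the glycans exposed on damaged lysosomes and endosomes. Galectin-3 binding protein is a heavily glycosylated secreted protein and a ligand of galectin-3. The study neutralised galectin-3 and galectin-3 binding protein, among other secreted factors, in T-cM. It had selected these factors as enriched at the protein level in T-cM over WT-cM. Of the tested factors, the study reports that blocking thrombospondin-1 alone was enough to prevent the change of WT organoids to cysts. The RNA data address a different point, namely how much of these transcripts the receiving organoids and the tumoroids themselves contained.

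All 7 genes are protein coding. In the mouse genome (GRCm38), Lgals1 lies at chr15:78926725-78930465 on the plus strand and Lgals2 at chr15:78850860-78855529 on the minus strand. Lgals3 lies at chr14:47367751-47386160 (plus), Lgals4 at chr7:28833854-28841708 (plus) and Lgals8 at chr13:12439415-12464944 (minus). Lgals9 lies at chr11:78962974-78984946 and Lgals3bp at chr11:118392751-118402092, both on the minus strand. None of the words of 100 bases in their transcripts occurred in a transcript of another gene of Gencode vM21. Reads of that length therefore separate these genes from other genes of that annotation, and relatives outside it were not searched. Exons of Lgals2 share 38 bases with Cdc42ep1 and exons of Lgals8 share 155 bases with Heatr1, in both cases on the opposite strand, and whether the counting used strand is not given in the sources used here.

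Promoter sequences (RefSeq, GRCm38.p6) were matched for 6 of the 7 genes, all but Lgals1. The sequences before the RefSeq starts of Lgals3, the galectin that differed between the organoid groups, and of Lgals2 and Lgals9, the galectins that were lower in tumoroids than in both organoid groups, are shown 5′ to 3′ on the strand of the gene. They lie before the start that RefSeq gives, which for Lgals3 is 6109 bases downstream of the Gencode gene start, so that the Lgals3 sequence lies within the gene as positioned above. Bases next to the start that the Gencode annotation places in an exon were left off, and capitals mark matches to the motifs described after the sequences.
Lgals3, chr14:47373610-47373812 (plus): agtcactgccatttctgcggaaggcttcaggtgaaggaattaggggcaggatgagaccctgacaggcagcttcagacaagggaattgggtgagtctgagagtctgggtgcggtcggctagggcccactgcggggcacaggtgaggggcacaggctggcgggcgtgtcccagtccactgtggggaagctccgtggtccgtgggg
Lgals2, chr15:78855530-78855779 (minus): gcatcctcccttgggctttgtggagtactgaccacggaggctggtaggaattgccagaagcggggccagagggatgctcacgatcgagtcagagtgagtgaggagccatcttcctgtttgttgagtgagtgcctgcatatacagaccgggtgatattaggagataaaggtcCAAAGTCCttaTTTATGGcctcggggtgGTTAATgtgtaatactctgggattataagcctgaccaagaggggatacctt
Lgals9, chr11:78984947-78985174 (minus): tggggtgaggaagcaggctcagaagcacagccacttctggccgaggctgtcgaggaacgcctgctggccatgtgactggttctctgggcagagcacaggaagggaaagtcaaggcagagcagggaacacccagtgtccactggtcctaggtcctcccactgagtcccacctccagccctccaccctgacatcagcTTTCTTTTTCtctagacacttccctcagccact
The letters searched on both strands of the 250 bases before the RefSeq start were CAAAGTCC (bound by HNF4 factors), GTTAAT (HNF1), TTTATNG (CDX), GAAA followed by any 2 bases and GAAA again (interferon response), GGGCGG (GC box), CATTCC (TEAD) and TGANTCA (AP-1). They were chosen after the sequences were seen. HNF4, HNF1 and CDX factors are regulators of intestinal epithelial differentiation, and the Lgals2 window held 1 match to each of their motifs, at 79, 51 and 68 bases before the start. Of 32851 promoters of the same length, 1.2% held the HNF4 letters, 6.43% the HNF1 letters and 9.81% the CDX letters. The Lgals9 window held the interferon response letters, on the opposite strand 55 bases before the start, as did 2.98% of all promoters. In the Lgals3 window the GC box letters (32.7% of all promoters) lay 7 bases before the start, within the bases left off. Neither the TEAD nor the AP-1 letters occurred in any of the 6 windows. These matches describe the letters and are not sites of binding.

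Library totals lay between 16541635 and 25170966 counts. Counts were scaled to a common library size (CPM) with normalisation factors between 0.89 and 0.962 for organoids and between 1.19 and 1.21 for tumoroids. The 7 genes were counted between 8 and 97930 times per library, and only Lgals1 was near the limit of 3 counts (0.103 to 0.203 CPM) taken as the least that shows expression. Such a limit covers counting error only, because the libraries carried no molecular identifiers and copies of one molecule cannot be removed. A gene was called changed at an adjusted p under 0.05 and a log2 fold change above 1 in size, by edgeR's quasi-likelihood test with Benjamini-Hochberg adjustment over the 16208 genes. In the tumoroid comparisons, p-values measure the spread between the cultures sequenced, which for the organoids are lines of 3 mice. Between the organoid groups the fit held a block for the replicate number. There the p-values measure the spread of differences within pairs of the same number. All libraries had the epithelial markers Epcam (738 to 1151 CPM) and Cdh1 (721 to 1027 CPM), and the fibroblast genes Col3a1 and Lum had 0 counts in every library. Because these are bulk samples, fewer cells of a type and less RNA per cell cannot be told apart for any of the differences that follow.

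The comparison of the organoid groups asks how the medium relates to galectin transcripts in normal epithelium. Lgals3, which encodes galectin-3, the one galectin with a long collagen-like tail that lets it form multimers, had 2.09-fold more transcript in T-cM-titled than in WT-cM-titled organoids. It was the only one of the 7 genes called, beside 0.673% of all tested genes called higher and 0.432% called lower. The median log2 fold change of the 7 genes was 0.13, against a median of all tested genes of zero. Lgals2 passed the p threshold without reaching the fold threshold, and the other 5 genes did not pass.

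Lgals3 measured 230, 207 and 175 CPM in WT-cM-titled replicates 1, 2 and 3. It measured 450, 466 and 353 CPM in the T-cM-titled replicates of the same numbers. Every T-cM-titled library lay above every WT-cM-titled library, as was the case in this direction for 5.12% of all tested genes. Within the pairs of the same number, for which the study's model holds a sample term, the ratio was 1.96, 2.26 and 2.01. The log2 fold change was 1.06 ± 0.08 (SE; n = 3 pairs, adjusted p = 1.4e-10, edgeR). The call rested on the pairing and on replicate 2. Without the replicate block the log2 fold change was 1.06 with an adjusted p of 0.60 (edgeR), and without replicate 2 it was 0.99 with an adjusted p of 0.065 (edgeR).

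Lgals3bp, the secreted ligand of galectin-3, did not pass the test between the organoid groups. It measured 503, 488 and 463 CPM in WT-cM-titled organoids and 558, 545 and 482 CPM in T-cM-titled organoids. The T-cM-titled library was the higher one in 3 of 3 pairs, as for 18.9% of all tested genes, by ratios of 1.11, 1.12 and 1.04, while the groups overlapped. The log2 fold change was 0.13 ± 0.07 (SE; adjusted p = 0.28, edgeR). Per gene length, as deposited TPM, in which transcript abundances sum to the same total in every library, Lgals3bp exceeded Lgals3 in all 3 WT-cM-titled libraries, with ratios between 1.43 and 1.72. In the 3 T-cM-titled libraries the order was the opposite, with ratios between 0.762 and 0.891.

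Lgals2 and Lgals4, the most abundant galectins of the intestinal epithelium, had small differences between the organoid groups. Lgals2 measured 2416, 1665 and 1758 CPM in WT-cM-titled organoids and 2495, 2215 and 2020 CPM in T-cM-titled organoids. The pairs moved in one direction but by unequal amounts, with ratios of 1.03, 1.33 and 1.15 (log2 fold change 0.23 ± 0.07 (SE), adjusted p = 0.038, edgeR). An adjusted p under 0.05 and a positive fold change occurred in 5.03% of all tested genes, and Lgals2 kept it in 3 of the 14 other fits. Lgals4, whose protein carries a pair of sugar-binding domains on one chain, measured 3594, 4186 and 4333 CPM in WT-cM-titled organoids and 4277, 4671 and 4573 CPM in T-cM-titled organoids. It was higher in the T-cM-titled library of 3 of 3 pairs and did not pass the test (log2 fold change 0.18 ± 0.06 (SE), adjusted p = 0.084, edgeR).

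The other galectins with paired domains, Lgals9 and Lgals8, and the one-domain galectin Lgals1 did not pass the test between the organoid groups. Lgals9 measured 418, 511 and 516 CPM in WT-cM-titled and 548, 501 and 497 CPM in T-cM-titled organoids. Only pair 1 was the higher one in the T-cM-titled library (ratio 1.31), and the log2 fold change of 0.11 ± 0.08 (SE; adjusted p = 0.45, edgeR) became -0.030 without replicate 1. Lgals8 measured between 63.6 and 80.9 CPM in all 6 organoid libraries, with a log2 fold change of -0.07 ± 0.09 (SE; adjusted p = 0.72, edgeR). Lgals1, the galectin best known from mesenchymal and immune cells, was counted only 14 to 46 times in WT-cM-titled and 8 to 32 times in T-cM-titled organoids. Its log2 fold change of -0.30 ± 0.33 (SE; adjusted p = 0.69, edgeR) was lower in 3 of 3 pairs, as for 22.3% of all tested genes, and smaller than its error.

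**Figure D1:**
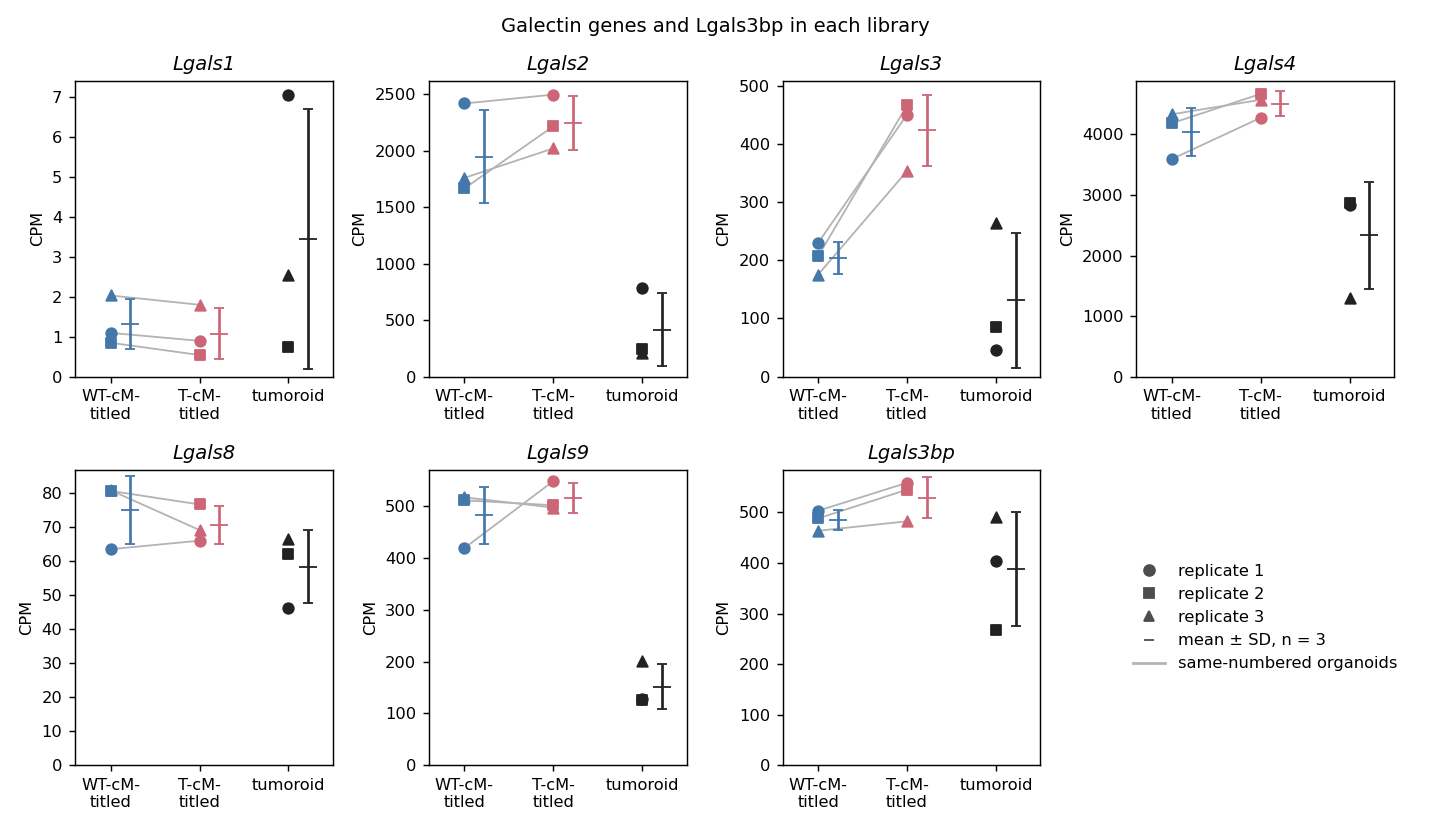
CPM of each gene (vertical axes, linear and from 0) in the 3 libraries of each group (points, with the shape giving the replicate number), with the mean and SD (n = 3) beside them and grey lines joining organoid libraries of the same number. All 3 lines of Lgals3 climb steeply from about the level of 175 to 230 CPM, Lgals2, Lgals4 and Lgals9 lie lower in all 3 tumoroid libraries, and the tumoroid points of Lgals1, Lgals2 and Lgals3 are far apart.

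The comparison of tumoroids with organoids asks how tumour epithelium differs from normal epithelium in these transcripts. Lgals2 and Lgals9 were lower in tumoroids than in either organoid group, Lgals3 was called lower against T-cM-titled organoids, and none of the 7 genes was called higher. Compared with WT-cM-titled organoids 2 of 7 genes were called lower, beside 11.6% of all tested genes, and 18.2% of all tested genes were called higher. Compared with T-cM-titled organoids 3 of 7 were called lower, beside 11.8% of all tested genes, and 19.4% were called higher. Both comparisons use the same 3 tumoroid libraries. The median log2 fold change of the 7 genes was -0.63 against WT-cM-titled and -0.95 against T-cM-titled organoids, where the median over all tested genes was 0.15 and 0.16. The size of these medians depended on the fit. They were -0.26 and -0.54 with library totals alone, -0.34 and -0.53 with TPM plus 1, and -0.35 and -1.11 without tumoroid replicate 1.

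Lgals2 measured 788, 245 and 212 CPM in tumoroid replicates 1, 2 and 3. All 3 values lay below every organoid library, the lowest of which had 1665 CPM, but replicate 1 stood well above the other tumoroids. The level was 4.69-fold lower than in WT-cM-titled organoids (log2 fold change -2.23 ± 0.47 (SE), adjusted p = 0.0039, edgeR). It was 5.41-fold lower than in T-cM-titled organoids (log2 fold change -2.43 ± 0.47 (SE), adjusted p = 0.0025, edgeR). Without tumoroid replicate 1 the log2 fold changes were -3.09 and -3.30.

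Lgals9, which encodes a galectin with immune-regulatory roles, measured 128, 126 and 201 CPM in tumoroids. These values did not overlap those of the organoids, which started at 418 CPM. Lower values without overlap were found for 22.5% of all tested genes against WT-cM-titled organoids and for 23.8% against T-cM-titled organoids. The level was 3.17-fold lower than in WT-cM-titled (log2 fold change -1.67 ± 0.21 (SE), adjusted p = 2.1e-04, edgeR) and 3.39-fold lower than in T-cM-titled organoids (log2 fold change -1.76 ± 0.21 (SE), adjusted p = 1.6e-04, edgeR). The calls of Lgals2 and Lgals9 were kept in both comparisons in all 17 other fits.

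In CPM, Lgals4 was also below every organoid library in all 3 tumoroids, at 2827, 2861 and 1307 CPM. Replicate 3 was the lowest and the other tumoroids lay close together. This separation depended on the scaling. In deposited TPM, tumoroid replicate 2 (4614 TPM) lay above all WT-cM-titled libraries, the highest of which had 4340 TPM. The log2 fold change was -0.79 ± 0.29 (SE; adjusted p = 0.053, edgeR) against WT-cM-titled organoids and -0.95 ± 0.29 (SE; adjusted p = 0.025, edgeR) against T-cM-titled organoids, and neither was called. An adjusted p under 0.05 with a lower value occurred in 18.5% and 19.2% of all tested genes. The log2 fold change against T-cM-titled organoids lies at the edge of the fold threshold: it was called without tumoroid replicate 1 (-1.11) or 2 (-1.15), with limma voom (-1.03) and with DESeq2 or its size factors (-1.01), while the values smallest in size were -0.53 with deposited TPM plus 1 or plus 0.1 and -0.54 with library totals alone, and it was -0.68 without tumoroid replicate 3.

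Lgals3 spread more widely among the tumoroids than among the organoids. It measured 45.1, 85.7 and 264 CPM, so that replicate 3 lay above all WT-cM-titled libraries while replicates 1 and 2 lay below them. The coefficient of variation of 88.4% was larger than that of 97.8% of the 9675 genes with at least 10 CPM in tumoroids, whose median was 19.6%. Relative to the WT-cM-titled group its log2 fold change was -0.63 ± 0.51 (SE; adjusted p = 0.35, edgeR). Without tumoroid replicate 3 it was -1.65 and called (adjusted p = 0.0014, edgeR). Relative to the T-cM-titled group it was -1.69 ± 0.52 (SE; adjusted p = 0.025, edgeR), all 3 tumoroids lay below the 353 CPM of the lowest T-cM-titled library, and the call was lost without tumoroid replicate 2 (adjusted p = 0.070, edgeR), T-cM-titled replicate 1 (0.053) or T-cM-titled replicate 2 (0.067). Without tumoroid replicate 3 this log2 fold change was -2.71.

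Lgals3bp and Lgals8 did not pass either test against the organoids. Lgals3bp measured 404, 268 and 492 CPM in tumoroids, with log2 fold changes of -0.32 ± 0.21 (SE; adjusted p = 0.26, edgeR) and -0.45 ± 0.21 (SE; adjusted p = 0.12, edgeR) against WT-cM-titled and T-cM-titled organoids. Lgals8, whose protein marks damaged endosomes for autophagy, measured 46.4, 62.2 and 66.7 CPM, with log2 fold changes of -0.36 ± 0.17 (SE; adjusted p = 0.11, edgeR) and -0.27 ± 0.17 (SE; adjusted p = 0.22, edgeR). The sign of both genes depended on the scaling. With deposited TPM plus 1 in place of normalised counts, the values were 0.17 and 0.024 for Lgals3bp and 0.16 and 0.22 for Lgals8, and the median of all tested genes moved to 0.52 and 0.51. No direction between tumoroids and organoids is therefore given for these 2 genes.

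Lgals1 was counted 156, 20 and 74 times in the tumoroid libraries, or 7.07, 0.743 and 2.54 CPM. Replicates 1 and 3 lay above all organoid libraries (at most 2.04 CPM) and replicate 2 lay within their range. The log2 fold changes of 1.36 ± 0.76 (SE; adjusted p = 0.18, edgeR) and 1.66 ± 0.78 (SE; adjusted p = 0.11, edgeR) were called only when tumoroid replicate 2 was left out (1.82 and 2.11), or, against T-cM-titled organoids, when library totals alone were used (2.06). Without tumoroid replicate 1 they were 0.30 and 0.60.

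**Figure D2:**
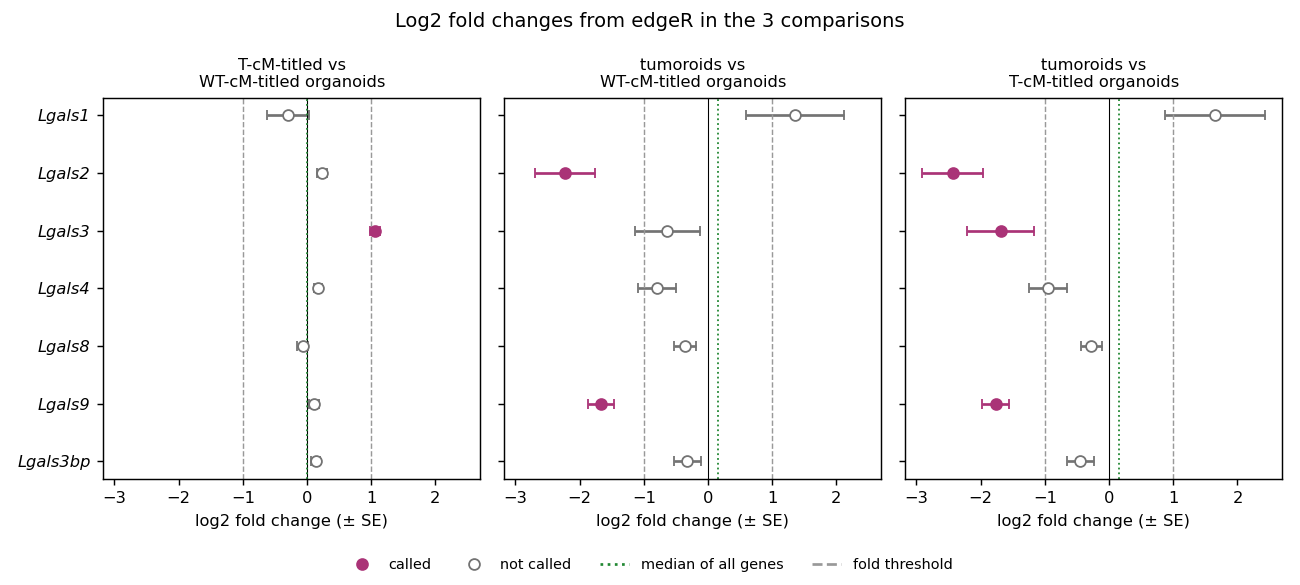
Log2 fold change (horizontal axis, first group minus second) of the 7 genes in each of the 3 comparisons, with bars giving the SE, filled points for called genes, dashed lines at the fold threshold and a dotted line at the median of all tested genes. Only Lgals3 is called between the organoid groups (1.06), and Lgals2 and Lgals9 are called with negative values in both tumoroid comparisons, Lgals3 only in that with T-cM-titled organoids.

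Levels were compared between genes in TPM, which accounts for gene length. In every organoid library Lgals2 ranked first and Lgals4 next among the 7 genes, at 8116 ± 2289 and 4233 ± 137 TPM (SD, n = 3) in WT-cM-titled organoids and at 9434 ± 1376 and 4813 ± 135 TPM (SD, n = 3) in T-cM-titled organoids. These are among the most abundant transcripts of the organoids, since Lgals2 ranked between 4 and 8 and Lgals4 between 13 and 18 of all genes. In WT-cM-titled organoids they were followed by Lgals9, Lgals3bp, Lgals3, Lgals8 and Lgals1 at 547, 416, 269, 49.3 and 3.99 TPM, with no overlap between the ranges of neighbours. In T-cM-titled organoids Lgals3, at 565 ± 96.8 TPM (SD, n = 3), stood between Lgals9 (597 ± 55.8) and Lgals3bp (460 ± 51.5) and overlapped the ranges of both.

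In tumoroids the leading genes were Lgals4 (3546 ± 1355 TPM, SD, n = 3) and Lgals2 (2404 ± 1711), whose ranges overlapped. Lgals4 was the higher of them in replicates 2 and 3, and Lgals2 in replicate 1. Lgals4 ranked 25, 12 and 52 among all genes and Lgals2 ranked 19, 69 and 90. Below them, Lgals3bp (478 ± 134), Lgals3 (253 ± 225) and Lgals9 (251 ± 74.8) were not separated throughout, as the ranges of Lgals3bp and Lgals3 and of Lgals3 and Lgals9 overlapped. Lgals8 (56.3 ± 13.1) and Lgals1 (3.47 to 28.9 TPM) followed without overlap with their neighbours. The ratio of Lgals3bp to Lgals3 was 5.85, 2.04 and 1.22 in the 3 tumoroid libraries, above 0.891, the highest T-cM-titled value, in each. Relative to the WT-cM-titled range of 1.43 to 1.72, replicates 1 and 2 lay above and replicate 3 lay below.

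Summed over the 7 genes, these transcripts made up 1.36 ± 0.222% of all TPM in WT-cM-titled organoids, 1.59 ± 0.158% in T-cM-titled organoids and 0.700 ± 0.217% in tumoroids (SD, n = 3). Lgals2 alone gave 58.8% of that sum in WT-cM-titled and 59.1% in T-cM-titled organoids, but 32.1% in tumoroids, where Lgals4 gave 50.5%. The share of Lgals3 in the sum was 1.97% and 3.54% in the organoid groups and ranged from 0.866% to 10.5% in the tumoroids.

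**Figure D3:**
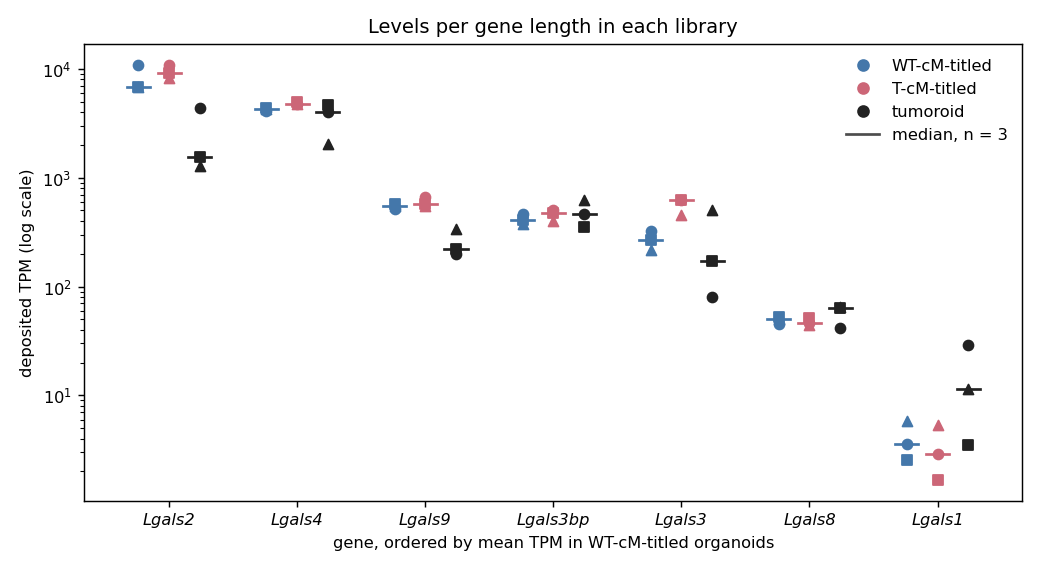
Deposited TPM (vertical axis, log scale) of the 7 genes in each library, coloured by group, with circles, squares and triangles for replicates 1, 2 and 3 and a line at the median of 3 libraries. Lgals2 and Lgals4 lie above 1000 TPM in all 9 libraries, Lgals1 lies below 30 TPM in all, and the tumoroid values of Lgals3 reach from 79.5 to 508 TPM.

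Of 6 further genes of the galectin family that were looked up, 4 were in the tables and 3 were tested. Lgals5 and Lgals6 were not in the tables. Grifin, a lens protein related to galectins, had 0 counts in every library. Lgals7, a galectin of stratified epithelia, had 1 to 6 counts per organoid library and 6, 13 and 58 counts in tumoroids. It was called higher against WT-cM-titled organoids (log2 fold change 2.68 ± 0.95 (SE), adjusted p = 0.045, edgeR) on these few reads, with most of them in replicate 3. That call was lost with limma voom, with a replicate block, without tumoroid replicate 3 and without any one WT-cM-titled replicate. Against T-cM-titled organoids Lgals7 was not called (log2 fold change 2.16 ± 0.92 (SE), adjusted p = 0.083, edgeR) and the groups overlapped. It was called higher there with TPM plus 1 or plus 0.1, with library totals alone and without tumoroid replicate 1. Lgals12, known from adipocytes, was the lower one in T-cM-titled libraries in 3 of 3 pairs (log2 fold change -0.44 ± 0.13 (SE), adjusted p = 0.023, edgeR) and did not reach the fold threshold. Lgalsl, which encodes a galectin-related protein that does not bind β-galactosides, measured between 33.1 and 69.8 CPM over all libraries and passed no test.

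Galectins bind the sugars that glycosyltransferases build. Of 23 tested enzymes of glycan branching and extension, 6 were called higher and 5 lower in tumoroids than in the WT-cM-titled group, and the same 11 genes were called against T-cM-titled organoids. Over all tested genes 18.2% were called higher and 11.6% lower in the first comparison and 19.4% and 11.8% in the second, and the count of higher enzymes was 4 without WT-cM-titled replicate 1 or 3. The median log2 fold change of the list was -0.41 and -0.36, but 0.12 and 0.13 with deposited TPM plus 1, so that no direction is given for the list as a whole. Among sialyltransferases, which cap galactose with sialic acid, St3gal4 had 53.8 ± 18.2 CPM in tumoroids and 1507 ± 209 CPM in WT-cM-titled organoids (SD, n = 3; 28.0-fold lower), whereas St3gal3 and St3gal1 were 5.42-fold and 2.17-fold higher. The call of St3gal1 was lost without tumoroid replicate 2 or WT-cM-titled replicate 1 or 3. St6gal1, which adds the α2,6-linked sialic acid that blocks binding of several galectins, had 8.04 ± 5.50 CPM in tumoroids and 0.313 ± 0.261 CPM in WT-cM-titled organoids (SD, n = 3; log2 fold change 4.69, adjusted p = 0.0015, edgeR). Of the enzymes that start branches on O-glycans, Gcnt1 (21.9-fold) and Gcnt3 (2.69-fold, with overlapping groups) were higher in tumoroids and Gcnt4 was lower (26.1-fold). The call of Gcnt3 was lost with limma voom, without tumoroid replicate 3 and without any one WT-cM-titled replicate. B3gnt7 and B4galt5, which extend chains with N-acetylglucosamine and galactose, were 8.75-fold and 3.28-fold lower, and Mgat4a, a branching enzyme of N-glycans, was 2.83-fold lower. Between the organoid groups none of the 23 enzymes was called, while 3 had an adjusted p under 0.05 with a positive fold change and 2 with a negative one, as did 5.03% and 5.05% of all tested genes, the largest in size being St3gal1 (-0.69 ± 0.13 (SE), adjusted p = 7.7e-04, edgeR) and St3gal6 (0.57 ± 0.09 (SE), adjusted p = 4.8e-05, edgeR).

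Among 20 tested surface and matrix glycoproteins known as galectin ligands, 11 were called higher and none lower in tumoroids relative to WT-cM-titled organoids, beside 18.2% of all tested genes called higher. Against T-cM-titled organoids 8 were called higher and none lower, beside 19.4%. When a library was left out, the count against WT-cM-titled organoids was 7 to 11, with the lowest value without WT-cM-titled replicate 3 and 8 without WT-cM-titled replicate 2 or tumoroid replicate 3. Mcam, a ligand of galectin-3 on melanoma and endothelial cells, had 29.5 ± 8.71 CPM in tumoroids and 0.180 ± 0.156 CPM in WT-cM-titled organoids (SD, n = 3). Cd44, a hyaluronan receptor, was 6.91-fold higher (adjusted p = 0.013, edgeR; not called without WT-cM-titled replicate 2 or 3) and Cd9, a tetraspanin, 4.57-fold higher (adjusted p = 7.8e-04, edgeR). Of the matrix genes, Col4a1 was 63.7-fold higher, from 0.618 ± 0.233 to 39.5 ± 28.3 CPM (SD, n = 3), and the laminin gene Lamb1 was higher, at 12.5 CPM on average against 0.261 CPM (log2 fold change 5.54 ± 0.95 (SE), adjusted p = 0.0014, edgeR). Fn1, which encodes fibronectin, had 0 counts in all 3 WT-cM-titled libraries and 32.9, 104.5 and 651 CPM in tumoroids, so that even the lowest tumoroid library was at least 205.6-fold higher than the limit of 3 counts per library. Between the organoid groups none of the 20 was called, although Cd9 (0.71 ± 0.10 (SE), adjusted p = 8.0e-06, edgeR), Lamc1 (0.58 ± 0.11 (SE), adjusted p = 4.7e-04, edgeR) and Tfrc (0.53 ± 0.12 (SE), adjusted p = 0.0025, edgeR) passed the p threshold with higher values in T-cM-titled organoids, as did 5.03% of all tested genes. Lamb1 averaged 0.261 CPM in WT-cM-titled organoids and 0.0176 CPM in T-cM-titled organoids, the latter under the limit of 3 counts (adjusted p = 0.088, edgeR), and was called lower with limma voom.

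Of 12 glycoproteins of the brush border whose apical delivery is linked to galectin-4 or galectin-3, 11 were called lower in tumoroids relative to WT-cM-titled organoids and 10 were called lower against T-cM-titled organoids, with medians of -3.40 and -3.23 and 11.6% and 11.8% of all tested genes called lower. The largest differences were those of the disaccharidases Sis (496-fold lower) and Lct (448-fold lower), the phosphatase Alpi (27.9-fold lower) and the peptidase Anpep (20.8-fold lower). Sis and Alpi are also in the list of enterocyte markers. Between the organoid groups none of the 12 was called. Alpi (0.75 ± 0.07 (SE), adjusted p = 4.3e-08, edgeR), Cdhr5 (0.33) and Slc3a1 (0.28) had an adjusted p under 0.05 with higher values in T-cM-titled organoids, and 5 genes, among them Mep1a (-0.86 ± 0.12 (SE), adjusted p = 7.3e-06, edgeR) and Lct (-0.48), with lower values, beside 5.03% and 5.05% of all tested genes. Of 8 tested partners of galectins in the handling of damaged membranes, only the autophagy receptor Optn was called, 3.71-fold lower in tumoroids relative to WT-cM-titled and 4.25-fold lower relative to T-cM-titled organoids. Between the organoid groups Sqstm1 (0.33 ± 0.08 (SE), adjusted p = 0.0044, edgeR) and Pdcd6ip (0.23 ± 0.07 (SE), adjusted p = 0.040, edgeR) passed the p threshold with higher values in T-cM-titled organoids, as did 5.03% of all tested genes.

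**Figure D4:**
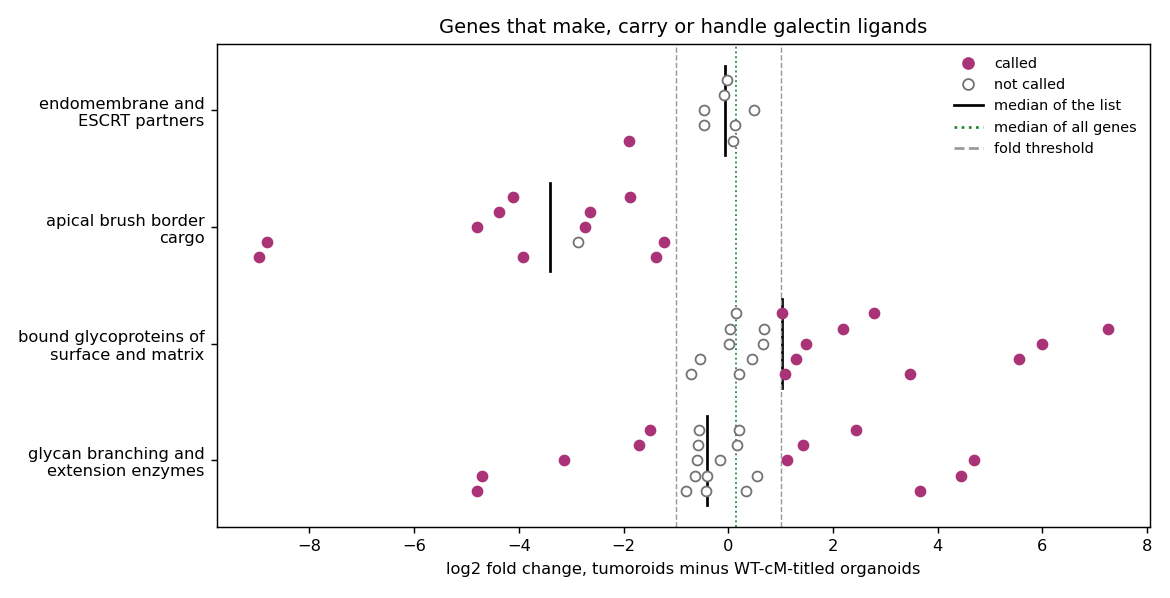
Log2 fold change of tumoroids minus WT-cM-titled organoids (horizontal axis) for each tested gene of 4 lists, with filled points for called genes, a black line at the median of the list, a dotted line at the median of all tested genes (0.15) and dashed lines at the fold threshold; Fn1, at 0 in WT-cM-titled organoids, is left out. All 12 brush border genes lie below zero, called surface and matrix genes lie only above it, and the glycan enzymes lie on both sides.

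Markers of enterocytes and goblet cells were also lower in tumoroids than in organoids. The 9 enterocyte markers summed to between 19440 and 36000 CPM in organoids and to 189, 561 and 130.5 CPM in the tumoroids. In tumoroids that sum was 0.966% of the WT-cM-titled mean, while Lgals2 was at 21.3%, Lgals9 at 31.5% and Lgals4 at 57.8% of theirs. Among the tumoroid replicates, Lgals4 had the same order as the enterocyte sum, which was highest in replicate 2. Lgals2 was highest in replicate 1 and Lgals9 in replicate 3, where the enterocyte sum was lowest. The 7 goblet cell markers stood at 18.2% of their WT-cM-titled mean. The 5 crypt stem cell markers summed to between 69.1 and 314 CPM in organoids and to between 488 and 654 CPM in tumoroids. Axin2 gave 264, 336 and 323 CPM of the tumoroid sums. Olfm4 was not higher in tumoroids, at 19.3, 1.90 and 4.74 CPM against 9.35 to 157 CPM in organoids. The part of cell composition in the galectin values was not tested.

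Among the tumoroids, replicate 3, which had the most Lgals3, had the highest sums of 6 of the 7 marker lists, namely those of epithelium (7399 CPM against 6523 and 6927), goblet cells (771), crypt stem cells (654), leukocytes, mesenchyme and endothelium, and the lowest sum of the enterocyte list. The 10 leukocyte and macrophage markers summed to between 5.60 and 8.93 CPM in organoids and to 55.4, 47.0 and 220 CPM in tumoroids, of which Cd14 gave 47.6, 19.7 and 194 CPM. Cd68 was at 4.57, 5.57 and 20.5 CPM in tumoroids and below 1 CPM in every organoid library, and Csf1r was highest in tumoroid replicate 2 at 20.4 CPM, against at most 3.49 CPM in organoids. Itgam went the other way, at 0.226, 0.409 and 0.309 CPM in tumoroids and between 0.659 and 1.46 CPM in organoids. C1qa was at most 0.0906 CPM in tumoroids and at most 0.338 CPM in organoids. The leukocyte gene Ptprc stayed below 1 CPM in all libraries, Cd3e had 0 counts in all libraries and Adgre1 had 0 counts in the tumoroids. The 11 mesenchymal markers summed to at most 5.13 CPM in organoids and to 12.5, 5.05 and 83.9 CPM in tumoroids, where replicate 3 had 46.0 CPM of Acta2 and 33.4 CPM of Col6a1, with Col3a1 and Lum at 0 and Dcn at 0.0343 CPM. The 6 endothelial markers summed to at most 1.65 CPM in organoids and to 3.17, 1.41 and 6.04 CPM in tumoroids. Vwf was at 2.72, 0.929 and 2.20 CPM in tumoroids (at most 0.330 in organoids), and Cdh5 and Tek at 1.85 and 1.82 CPM in replicate 3. Tek was at 0.181 and 0.260 CPM in tumoroid replicates 1 and 2, below the organoids (0.486 to 0.841 CPM). Pecam1 was lower in all 3 tumoroids, at 0.226, 0.186 and 0.172 CPM against 0.407 to 1.06 CPM in organoids. Kdr and Emcn were at 0 in all libraries. For comparison, Lgals3 was at 45.1, 85.7 and 264 CPM and Lgals1 at 7.07, 0.743 and 2.54 CPM in the tumoroid libraries. The part of other cell types in these values was not tested.

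**Figure D5:**
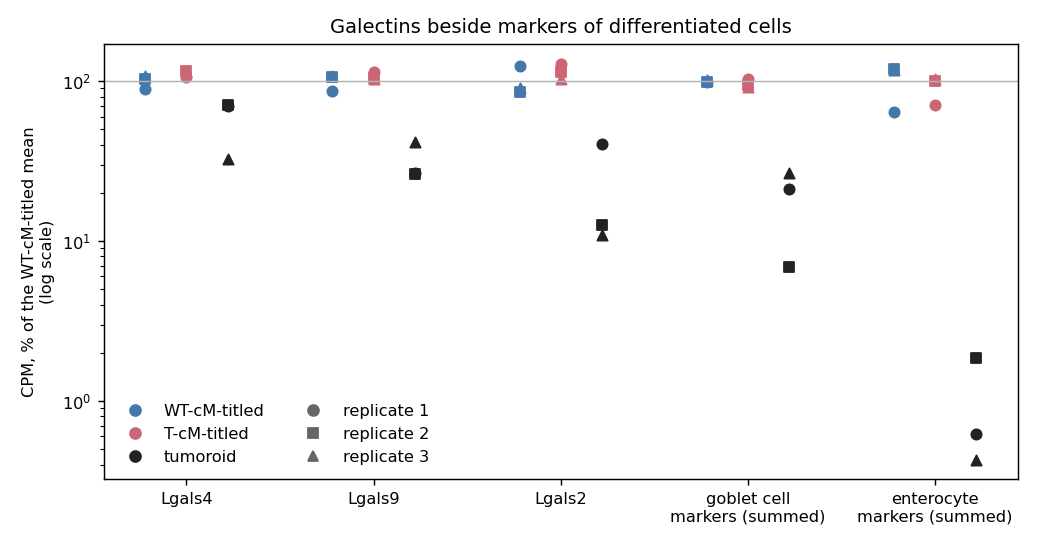
CPM as a percentage of the WT-cM-titled mean (vertical axis, log scale) of Lgals4, Lgals9, Lgals2 and of the summed goblet cell and enterocyte markers in each library, coloured by group with the shape giving the replicate number. All tumoroid points lie below 100%, those of the galectins between 10.9% and 71%, and those of the enterocyte sum below 2%.

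The profile of each gene over the 9 libraries was set beside those of 9353 other genes by Pearson's r of log2 CPM. The closest genes were E2f2 (r = 0.990) and Nagpa (0.988) for Lgals2, Adh7 (0.992) and Naip1 (0.991) for Lgals4, and Rbp2 (0.995) and Fcgrt (0.995) for Lgals9. For Lgals3 they were Irf1 (0.964) and Ik (0.963), and for Lgals3bp Pparg (0.980) and Spag7 (0.976). For Lgals8 they were Acp2 (0.974) and Wfs1 (0.972), and for Lgals1 Eif3h (0.985) and Emc10 (0.957). Rbp2, which encodes a retinol-binding protein of enterocytes, is one of the enterocyte markers counted above. The 9 points share their libraries and the split between organoids and tumoroids, and the genes were the highest of 9353, so the coefficients are descriptions without a test.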

How the data were processed

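The authors prepared stranded polyA libraries, aligned reads to mm10 with STAR and deposited raw counts per gene (Gencode vM13) and TPM (length-scaled transcript abundance) for 9 libraries. The tool and strand option used for counting, and the lengths used for TPM, are not given in the sources used here. Genes with at least 1 TPM in at least 1 library were kept. Counts were scaled by TMM and fitted with edgeR 4.0.16 (quasi-likelihood, R 4.3.3), organoid groups over their 6 libraries with a block for the replicate number, and tumoroid comparisons over all 9 libraries without it. P-values were adjusted by the Benjamini-Hochberg procedure over all tested genes. A call needed an adjusted p under 0.05 and a log2 fold change above 1 in size. Fold changes came from the fit, CPM from the scaled totals.

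Organoids of the same number deviated together from their group means (r = 0.546, 0.338 and 0.547 over 16208 genes), and the study's model for the organoids holds a term for 3 samples; that a number marks 1 mouse is a reading of the design text, which gives 3 mice. The numbers of tumoroids did not pair with those of either organoid group.

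The 7 genes, the gene lists and the tests were chosen with earlier results of these data known. From each pathway list up to 4 called genes per direction with a group mean of at least 10 CPM were named, by size of change, with Cd44, Cd9, St6gal1, Mgat4a and the genes below the fold threshold added after their values were seen. Gene positions were taken from Gencode vM21. The alternatives were limma voom (limma 3.58.1), DESeq2 1.42.0, other scaling and filters, TPM plus 1 or 0.1, no block, each library left out and, added after the data were seen, library totals alone. Scripts were tested on simulated data.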

Additional observations from a re-analysis of the deposited data

How the results depend on the processing

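Between the organoid groups the number of called genes, 179 in the reported fit, was 118 with limma voom, 93 with DESeq2, 1634 with no fold threshold and 0 with limma on TPM plus 1 or plus 0.1, where 2690 and 2553 genes had an unadjusted p under 0.05. Without the replicate block, edgeR called 0 genes (905 at an unadjusted p under 0.05), and leaving out a replicate gave 1 (replicate 2) to 385 genes (replicate 1). Lgals3 kept an adjusted p under 0.05 in 10 of 14 other fits, with log2 fold changes from 0.99 to 1.10; the call was lost with TPM plus 1 (adjusted p = 0.28, limma) or plus 0.1 (0.29), without the block (0.60) and without replicate 2 (0.065). Lgals9 gave -0.030 to 0.18 when a replicate was left out. With the media named by the treatment field the values were 0.30 for Lgals1, -0.23 for Lgals2, -1.06 for Lgals3, -0.18 for Lgals4, 0.069 for Lgals8, -0.11 for Lgals9 and -0.13 for Lgals3bp. In tumoroids against WT-cM-titled organoids, Lgals8 was 0.16 with TPM plus 1 or plus 0.1 and 0.033 with library totals alone, and Lgals3bp 0.17, 0.17 and 0.064. Against T-cM-titled organoids Lgals8 was 0.22, 0.22 and 0.13, and Lgals3bp 0.024 with either TPM setting. With totals alone the call of Lgals3 against T-cM-titled organoids was lost (-1.29, adjusted p = 0.058, edgeR), and the median of all tested genes was 0.54 and 0.56. With a replicate block in the tumoroid comparisons, whose numbers do not pair the samples, 4975 and 5206 genes were called in place of 4834 and 5057, and no gene of the 7 changed its call. The cause of these shifts was not tested. Depth limits Lgals1 and Lgals7, whose organoid counts were at most 46 and 6.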

Other observations

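Over the 9 libraries, which share the split between organoids and tumoroids, Pearson's r of log2 CPM between pairs of the 7 genes ranged from -0.634 (Lgals1 and Lgals8) to 0.860 (Lgals2 and Lgals4). Lgals3 stood closest to Lgals9 (0.799) and Lgals3bp (0.739), and Lgals1 had a negative coefficient with each of the other 6 genes.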
